A study of Mus musculus with 6 samples.

Results

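The 10 genes described here elongate, desaturate, activate, carry or esterify long-chain fatty acids, and were followed through the cell types of the mouse retina. They were chosen by name, as 3 elongases (Elovl4, Elovl2 and Elovl5), 3 desaturases (Fads1, Fads2 and Scd2), the acyl-CoA synthetase Acsl6, the lipid carrier Mfsd2a and 2 acyltransferases (Agpat3 and Lpcat1), which are 10 of the 52636 genes counted. All 10 were detected, with totals over all cells from 42 UMIs (unique molecular identifiers, 1 per captured RNA molecule) for Fads2 to 28746 UMIs for Agpat3. A further 68 genes of the same pathways were counted by role beside them.

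Docosahexaenoic acid (DHA) is the main polyunsaturated fatty acid of photoreceptor outer segment membranes, where it sits in phospholipids. It is either taken up ready made from blood or built from shorter dietary precursors by alternating desaturation (Fads genes) and elongation (Elovl genes) with a final chain shortening in peroxisomes. Acyl-CoA synthetases activate the free acid, and acyltransferases place it on the glycerol backbone of phospholipids. Elovl4 extends polyunsaturated chains further, and inherited ELOVL4 mutations cause a macular dystrophy.

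The data were single-cell RNA-seq counts from retinas of male C57BL/6J mice aged 12 months, 3 of them wild type (Dram2 wt/wt) and 3 homozygous for a germline deletion of Dram2 exon 4 made with CRISPR/Cas9 (Dram2 ko/ko). DRAM2 is a lysosomal membrane protein linked to a cone-rod dystrophy in people. Replicate 3 of each genotype formed batch 1 and replicates 1 and 2 formed batch 2, so each batch held both genotypes. Whole retinas were dissociated with papain, and the authors assigned 45746 of the 46375 cells to 5 types, named Photoreceptor, Interneuron, Glia, Mesenchymal and RPE (retinal pigment epithelium).

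Each retina held 7014 to 9242 cells and 3463728 to 6563762 UMIs. Photoreceptors made up 42359 cells and RPE only 116, so that 3 UMIs in 1 retina were worth 0.642 to 1.04 UMIs per 1000000 (CPM) in photoreceptors and 83.4 to 176 CPM in RPE. The authors describe the RPE cells found here as an artifact of isolating the retina. The marker lists fitted the type names for 11 of 11 rod genes in photoreceptors, 8 of 10 Müller genes in glia and 31 of 34 vascular and microglial genes in mesenchymal cells, each highest in its own type. Interneurons were not checked in this way. In RPE 11 of 13 RPE genes were highest, Best1 was at 0, and the summed Müller list stood at 21047 to 32385 CPM beside 54464 to 71056 CPM in glia. Most of the RPE sum came from Apoe and Clu, at 10967 and 9724 CPM over all retinas. Rlbp1, Dbi and Car14 stood at 2472, 2049 and 1963 CPM in RPE and at 4869, 4144 and 1422 CPM in glia. Clu, at 9355 CPM in glia, and Car14 were thus higher in RPE. Glul was at 641 CPM in RPE and 16361 CPM in glia. Slc1a3 was at 0, Aqp4 at 6.61, Spc25 at 19.8 and Dkk3 at 46.3 CPM in RPE, against 800 to 3045 CPM for these 4 genes in glia. Dram2 itself gave 109, 140 and 317 UMIs in wild-type retinas and 95, 149 and 351 UMIs in those of ko/ko mice, and UMIs read from the 3′ end do not check a deletion of exon 4. The median share of mitochondrial UMIs per cell was 1.86% and 2.25% in the batch 1 retinas and 0.114% to 0.45% in batch 2.

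The genes lay on 6 chromosomes of the mouse genome (GRCm38, GENCODE M21 gene bounds), and all are protein coding. The elongases were Elovl4 (ENSMUSG00000032262, chr9:83778692-83806277, minus strand), Elovl2 (ENSMUSG00000021364, chr13:41182381-41220405, minus) and Elovl5 (ENSMUSG00000032349, chr9:77917364-77984519, plus). The desaturases were Fads1 (ENSMUSG00000010663, chr19:10182888-10196877, plus), Fads2 (ENSMUSG00000024665, chr19:10062765-10101746, minus) and Scd2 (ENSMUSG00000025203, chr19:44293674-44306864, plus). The others were Acsl6 (ENSMUSG00000020333, chr11:54303798-54364756, plus), Mfsd2a (ENSMUSG00000028655, chr4:122946850-122961188, minus), Agpat3 (ENSMUSG00000001211, chr10:78269178-78352489, minus) and Lpcat1 (ENSMUSG00000021608, chr13:73467197-73516422, plus).

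RefSeq promoter windows (GRCm38.p6) were held for 8 of the 10 genes and not for Fads1 and Scd2. The 250 bases before the RefSeq start, which can differ from the GENCODE gene end, are printed for 5 genes. These are 2 genes highest in photoreceptors (Elovl4 and Agpat3), Elovl2, which was highest in cone-rich cells, Elovl5 as the glial elongase, and Mfsd2a as the endothelial carrier. Capitals mark matches on either strand to 5 fixed motifs, which were TAATCC (bound by CRX and OTX2), TGCTGA (the core bound by NRL and other MAF proteins), CCAAT, the GC box GGGCGG, and the E-box CACGTG. The windows were, 5′ to 3′ on the gene's strand:
Elovl4, chr9:83806306-83806555, minus: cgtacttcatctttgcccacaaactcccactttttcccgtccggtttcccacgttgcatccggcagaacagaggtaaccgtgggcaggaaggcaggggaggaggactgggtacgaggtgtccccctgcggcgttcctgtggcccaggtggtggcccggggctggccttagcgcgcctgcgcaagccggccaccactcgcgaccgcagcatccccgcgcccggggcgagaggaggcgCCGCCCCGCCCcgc
Agpat3, chr10:78351701-78351950, minus: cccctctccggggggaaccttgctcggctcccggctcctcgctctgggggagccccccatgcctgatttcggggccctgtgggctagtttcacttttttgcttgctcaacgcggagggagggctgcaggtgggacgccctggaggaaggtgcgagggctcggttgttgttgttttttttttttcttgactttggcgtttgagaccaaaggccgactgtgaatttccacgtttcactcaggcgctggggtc
Elovl2, chr13:41220404-41220653, minus: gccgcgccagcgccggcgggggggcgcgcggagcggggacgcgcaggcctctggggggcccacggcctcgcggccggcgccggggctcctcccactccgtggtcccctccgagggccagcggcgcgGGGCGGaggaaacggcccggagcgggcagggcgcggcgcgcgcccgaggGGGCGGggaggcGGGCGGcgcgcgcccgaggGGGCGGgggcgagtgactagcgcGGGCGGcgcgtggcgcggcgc
Elovl5, chr9:77917115-77917364, plus: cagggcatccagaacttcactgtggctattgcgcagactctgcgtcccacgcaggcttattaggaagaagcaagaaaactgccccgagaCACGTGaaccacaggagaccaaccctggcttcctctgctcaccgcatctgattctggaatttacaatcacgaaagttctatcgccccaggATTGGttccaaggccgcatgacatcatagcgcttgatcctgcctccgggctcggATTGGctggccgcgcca
Mfsd2a, chr4:122961189-122961438, minus: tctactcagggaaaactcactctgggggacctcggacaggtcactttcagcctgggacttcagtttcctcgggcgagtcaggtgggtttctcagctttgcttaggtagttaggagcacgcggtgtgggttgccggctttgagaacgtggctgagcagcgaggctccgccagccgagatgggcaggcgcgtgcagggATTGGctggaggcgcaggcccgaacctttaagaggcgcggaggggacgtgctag

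The Elovl4 window ended in a pair of GC boxes that share 1 base, beginning 14 and 9 bases before the start, and the Elovl2 window printed held 5 GC boxes in sequence that was 87.2% G and C. A second Elovl2 window, chr13:41220163-41220412, lay mostly inside the GENCODE bounds of the gene, was 79.6% G and C and held none of the 5 motifs. GGGCGG occurs in 32.7% of the 32851 RefSeq windows. The Elovl5 window held CCAAT, in reverse, 71 and 17 bases before the start and a CACGTG 161 bases before it, and the Mfsd2a window held a reversed CCAAT 54 bases before the start. CCAAT occurs in 33.8% and CACGTG in 6.02% of windows. The Agpat3 window held none of the 5 motifs. It lay inside the GENCODE bounds of the gene, whose 5′ end is at chr10:78352489, so the bases before that end were not searched. TAATCC, found in 6.25% of windows, was present only in the window of Lpcat1 among the 8 genes, 230 bases before the start in reverse, and TGCTGA, found in 16.1%, in none of them.

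The 10 genes differed in which cell type held them. Elovl4, Elovl2, Agpat3 and Lpcat1 had their highest mean level in photoreceptors, Elovl5, Fads1, Fads2 and Scd2 in glia, Acsl6 in RPE and Mfsd2a in mesenchymal cells. All 9 genes that passed the filter on low counts differed among the 5 types in edgeR's quasi-likelihood F test with Benjamini-Hochberg adjustment, where 94.3% of the 6290 genes tested did so. Photoreceptors and glia split them evenly, with 4 of 9 higher in photoreceptors and 4 of 9 higher in glia, against 37% and 32% of all genes. The types were clusters of these same counts, so these p-values describe the size of a difference against the spread over retinas and are not independent evidence. The filter asked for a minimum level in as many sums as a type holds. Sparse genes such as Elovl2, Elovl5 and Mfsd2a could therefore enter through the types where they were high, which favours a difference among types for them. Of 36 pairs of neighbouring types in the orders of the 9 genes, 16 passed. The orders were set by the mean levels in these same counts, and the share over all genes was not computed, so this count has no background.

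The other pairs of types gave the following counts of the 9 genes. Against interneurons photoreceptors were higher for 5 and lower for 3 genes (background 32.9% and 33.1%), against mesenchymal cells for 5 and 2 (33.2% and 30.9%) and against RPE for 4 and 5 (37.7% and 13.6%). Glia were higher than interneurons for 5 and lower for 2 genes (27.6% and 31.6%), higher than mesenchymal cells for 5 and lower for 1 (22.3% and 22.5%), and higher and lower than RPE for 2 each (30.2% and 8.39%). Interneurons were higher than mesenchymal cells for 3 and lower for 2 genes (29.6% and 27.8%), and higher than RPE for 0 and lower for 3 (35.3% and 10.7%). Mesenchymal cells were higher than RPE for 1, Mfsd2a, and lower for 1, Acsl6 (29.9% and 8.98%).

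**Figure D1:**
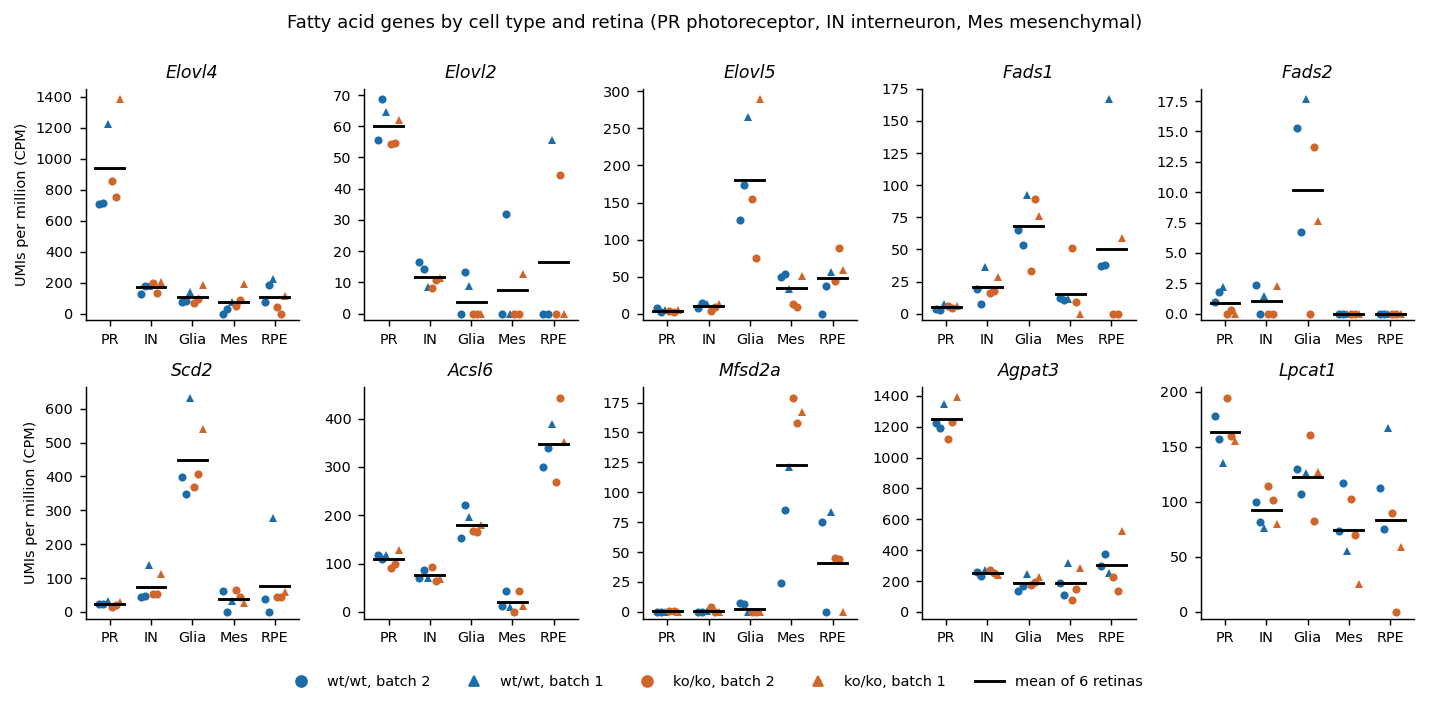
UMIs per 1000000 (CPM, linear axes that differ between panels) of the 10 genes in each deposited cell type, 1 point per retina, with wt/wt in blue, ko/ko in orange, batch 1 as triangles and batch 2 as circles, and the mean of 6 retinas as a black line. Elovl4, Elovl2, Agpat3 and Lpcat1 have their highest mean in photoreceptors, Elovl5, Fads1, Fads2 and Scd2 in glia, Acsl6 in RPE and Mfsd2a in mesenchymal cells.

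Elovl4, the elongase of very long chain fatty acids, was high in photoreceptors of every retina. Its level was 708, 716 and 1227 CPM in the wild-type replicates 1 to 3 and 856, 752 and 1384 CPM in the ko/ko replicates, against 128 to 204 CPM in interneurons. The lowest photoreceptor sum was thus above the highest interneuron sum, and both batch 1 retinas stood above the other 4. The mean in photoreceptors was 941 ± 292 CPM (SD, n = 6) and in interneurons 171 ± 31.9 CPM, a log2 difference of 2.77 (SE 0.13, edgeR adjusted p = 2.64e-30). Below interneurons came RPE (108 ± 85.2 CPM), glia (107 ± 45.3 CPM) and mesenchymal cells (73.4 ± 66.4 CPM), and no difference between neighbours in this order passed.

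Agpat3, which attaches an acyl chain to lysophosphatidic acid and favours DHA, was also highest in photoreceptors. Photoreceptors held 1221, 1190 and 1344 CPM in wild-type and 1123, 1232 and 1393 CPM in ko/ko retinas, and RPE held 133 to 527 CPM. No photoreceptor sum came near those of another type, and the mean of 1251 ± 99.97 CPM exceeded that of RPE, 302 ± 137 CPM, by 2.49 on the log2 scale (SE 0.21, edgeR adjusted p = 2.8e-17). RPE, interneurons (255 ± 14.9 CPM), glia (190 ± 39.0 CPM) and mesenchymal cells (186 ± 96.7 CPM) followed, and no difference between neighbours passed.

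Lpcat1, which re-acylates lysophosphatidylcholine and whose loss causes retinal degeneration in rd11 mice, was spread over all types. In photoreceptors it stood at 178, 157 and 136 CPM in wild-type and at 195, 160 and 156 CPM in ko/ko retinas. Glia reached 82.6 to 161 CPM, so that the 2 ranges overlapped. The mean in photoreceptors, 163 ± 20.4 CPM, was higher than in glia, 122 ± 26.0 CPM, by 0.53 on the log2 scale (SE 0.13, edgeR adjusted p = 0.000308), and glia were above interneurons, 92.1 ± 15.04 CPM, by 0.60 (SE 0.15, edgeR adjusted p = 0.000585). RPE (83.7 ± 55.6 CPM) and mesenchymal cells (74.1 ± 32.8 CPM) followed, and no difference between them passed.

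Elovl2, which elongates polyunsaturated chains on the way to DHA, had its maximum in photoreceptors too. It stood at 55.7, 68.6 and 64.5 CPM in wild-type and at 54.3, 54.6 and 62.0 CPM in ko/ko photoreceptors. Interneurons held 8.14 to 16.6 CPM, and glia held 6 UMIs in all, with none in 4 of the 6 retinas. Photoreceptors were above RPE, the next type, by 1.98 on the log2 scale (SE 0.70, edgeR adjusted p = 0.0152), but RPE held only 3 Elovl2 UMIs. Against glia the log2 difference was 4.11 (SE 0.39, edgeR adjusted p = 1.54e-15).

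Elovl5, the elongase of the shorter polyunsaturated chains, showed the opposite distribution, with 327 of its 488 UMIs in glia. These cells made up 2.03% of cells and held 5.55% of the UMIs of all genes. Glia held 126, 174 and 265 CPM in wild-type and 154, 75.7 and 289 CPM in ko/ko retinas, while photoreceptors held 2.23 to 7.45 CPM. Both batch 1 retinas were the highest of their genotype in glia. Glia (181 ± 82.0 CPM) exceeded RPE (47.5 ± 29.2 CPM) by 2.19 on the log2 scale (SE 0.47, edgeR adjusted p = 0.000119). The difference between RPE and mesenchymal cells (34.7 ± 19.9 CPM) did not pass, mesenchymal cells were above interneurons (10.1 ± 4.16 CPM) by 1.84 (SE 0.48, edgeR adjusted p = 0.000643), and interneurons were above photoreceptors (4.03 ± 1.94 CPM) by 1.07 (SE 0.31, edgeR adjusted p = 0.00175).

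Scd2, a stearoyl-CoA desaturase that makes monounsaturated fatty acids, was the second gene with a clear glial maximum. Its level in glia was 397, 348 and 633 CPM in wild-type and 369, 406 and 540 CPM in ko/ko retinas. All 6 exceeded the highest sum of any other type, 278 CPM in the RPE of wild-type replicate 3, and the batch 1 retinas were again highest. The mean of 449 ± 113 CPM was above that of RPE, 77.2 ± 100 CPM, by 2.54 on the log2 scale (SE 0.35, edgeR adjusted p = 1.01e-08). The difference between RPE and interneurons (74.8 ± 40.4 CPM) did not pass, interneurons were above mesenchymal cells (38.0 ± 24.0 CPM) by 0.94 (SE 0.36, edgeR adjusted p = 0.0207), and photoreceptors were lowest at 24.1 ± 6.67 CPM. The step from interneurons to mesenchymal cells did not pass without wild-type replicate 3 (0.61, edgeR adjusted p = 0.174) or ko/ko replicate 3 (0.66, edgeR adjusted p = 0.156), the batch 1 retinas.

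The front-end desaturases of the DHA pathway were sparse. Fads1 gave 64.9, 53.5 and 92.7 CPM in wild-type glia and 33.5, 89.4 and 76.1 CPM in ko/ko glia, with 3.04 to 7.26 CPM in photoreceptors. The log2 difference between glia (68.4 ± 22.5 CPM) and RPE (50.1 ± 61.7 CPM, from 9 UMIs) was 0.44 (SE 0.54, edgeR adjusted p = 0.534), whereas glia exceeded photoreceptors (5.09 ± 1.56 CPM) by 3.53 on the log2 scale (SE 0.28, edgeR adjusted p = 4.43e-19). Fads2, the enzyme of the first desaturation, had 42 UMIs in all, 18 in photoreceptors, 18 in glia and 6 in interneurons, and did not pass the filter. Its mean was 10.2 ± 6.59 CPM in glia, 1.01 ± 1.16 CPM in interneurons and 0.885 ± 0.964 CPM in photoreceptors. Mesenchymal cells and RPE gave 0 Fads2 UMIs, which allows up to 5.60 and 19.8 CPM over the 6 retinas.

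Acsl6, the synthetase that activates DHA to its CoA ester, was present in every type. RPE held 299, 338 and 389 CPM in wild-type and 268, 444 and 351 CPM in ko/ko retinas, each from 6 to 14 UMIs. Glia held 153 to 221 CPM and photoreceptors 91.3 to 127 CPM, so that the sums of RPE, glia and photoreceptors did not overlap. RPE (348 ± 62.7 CPM) was above glia (180 ± 24.7 CPM) by 0.75 on the log2 scale (SE 0.24, edgeR adjusted p = 0.011), glia above photoreceptors (110 ± 13.2 CPM) by 0.53 (SE 0.13, edgeR adjusted p = 0.000194), photoreceptors above interneurons (75.7 ± 11.54 CPM) by 0.90 (SE 0.12, edgeR adjusted p = 1.03e-09) and interneurons above mesenchymal cells (20.4 ± 18.3 CPM) by 1.55 (SE 0.37, edgeR adjusted p = 0.000206). The step from RPE to glia did not pass without ko/ko replicate 2 (0.61, edgeR adjusted p = 0.0708). Without the filter on low counts neither this step (0.39, edgeR adjusted p = 0.499) nor that from glia to photoreceptors (0.29, edgeR adjusted p = 0.118) passed. Photoreceptors, being most of the cells, held 77.2% of all Acsl6 UMIs, beside 75.4% of the UMIs of all genes.

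Mfsd2a, the transporter that carries DHA as lysophosphatidylcholine across the endothelium of brain and retina, had 66 of its 87 UMIs in mesenchymal cells. These made up 0.53% of cells and held 1.91% of the UMIs of all genes. The mesenchymal mean was 123 ± 59.0 CPM, and RPE followed with 41.2 ± 35.6 CPM from 7 UMIs. The log2 difference between them was 1.59 (SE 0.59, edgeR adjusted p = 0.0253), and it no longer passed without wild-type replicate 2 (1.45, edgeR adjusted p = 0.0555) or without ko/ko replicate 1, 2 or 3, where it was 1.48, 1.54 and 1.22. RPE was above glia, which had 3 UMIs, by 4.21 (SE 1.05, edgeR adjusted p = 0.000913). Interneurons held 2 UMIs and photoreceptors 8 UMIs of 21117203, and no difference among glia, interneurons and photoreceptors passed between neighbours.

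Rod transcripts were present in all types, and the summed list of 11 rod genes stood at 6033 to 15776 CPM outside photoreceptors against 70217 to 110077 CPM inside. The UMIs of each gene were therefore set against the number it would have if it kept, in each retina, its photoreceptor ratio to the rod list. Elovl4 gave 0.889 of that number in glia, 0.985 in RPE, 0.685 in mesenchymal cells and 1.25 in interneurons, and Agpat3 gave 1.21 in glia and 1.48 in interneurons. In RPE Agpat3 gave 1.78. By retina, Agpat3 was above 1 in all 6 in interneurons (1.35 to 1.54) and RPE (1.33 to 3.29), as was Elovl4 in interneurons (1.12 to 1.70), while Elovl4 in RPE ran from 0 to 1.83. Elovl2 gave 0.491 in glia from 6 UMIs and 1.36 in interneurons.

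The other genes stood above that ratio in most types. Lpcat1 gave 4.13 to 6.12 times the number in the 4 types, Acsl6 12.3 times in glia and 24.0 times in RPE, Fads1 99.9 times in glia, Scd2 143 times in glia and Elovl5 377 times in glia. In mesenchymal cells Acsl6 gave 1.82 times the number from 12 UMIs, with a median retina at 0.98, and Fads2 had no UMI in mesenchymal cells or RPE. In interneurons Acsl6 gave 4.72 times and Scd2 27.2 times the number. Where only the cells with no more rod RNA than the median of their retina and type were kept, the log2 difference of Acsl6 between RPE and glia was 0.66 (edgeR adjusted p = 0.0631).

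**Figure D2:**
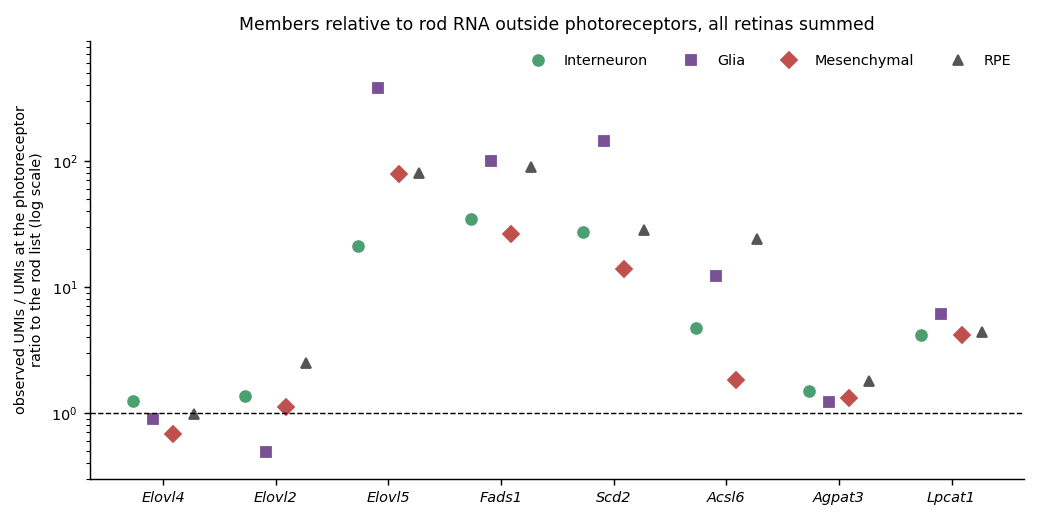
Observed UMIs of 8 genes in each type other than photoreceptors, summed over 6 retinas, divided by the UMIs at the photoreceptor ratio to the rod list (log axis, dashed line at 1). Elovl4 and Agpat3 lie between 0.685 and 1.78 in all 4 types, while Elovl5, Fads1 and Scd2 reach 377, 99.9 and 143 in glia.

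Photoreceptors contain rods and cones, and cells with at least 10 UMIs and 3% of their UMIs from a list of 10 cone genes were set apart after the data had been seen. This gave 897 cone-rich cells (median 1887 UMIs) and 41462 other photoreceptors (median 421 UMIs), with 67 cells within 1 percentage point of the 3% limit. None of the 10 fatty acid genes was in the cone list. The cone list was not particular to photoreceptors, at 2892 to 5074 CPM in interneurons against 5261 to 9005 CPM in photoreceptors. Its genes Gnb3, Gngt2 and Cngb3 were higher in interneurons, and its other genes higher in photoreceptors. The comparison was descriptive, over the sums of 6 retinas.

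Elovl2 was higher in cone-rich cells of all 6 retinas. Its level there was 178, 192 and 183 CPM in wild-type and 140, 147 and 201 CPM in ko/ko retinas, against 44.8 to 57.3 CPM in the other photoreceptors. The ranges did not overlap, and the means were 174 ± 24.9 and 49.6 ± 4.47 CPM (SD, n = 6). Elovl5, low in photoreceptors as a whole, was also higher in cone-rich cells, with 31.1 ± 17.6 CPM from 52 UMIs against 1.63 ± 0.768 CPM. The 2 genes were 2 of 10 with non-overlapping higher sums, where 10.8% of 6290 genes had them.

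Elovl4, Agpat3 and Lpcat1 were lower in cone-rich cells of all 6 retinas, again without overlap, which 8.49% of genes showed. Elovl4 stood at 316 ± 72.6 CPM in cone-rich and 998 ± 318 CPM in other photoreceptors, Agpat3 at 498 ± 54.9 and 1319 ± 114 CPM, and Lpcat1 at 101 ± 14.8 and 169 ± 20.5 CPM. The rod list moved with them, at 26439 to 33854 CPM in cone-rich cells and 74092 to 115653 CPM in the others. Per 1000 rod list UMIs, Elovl4 was at 10.3 ± 1.98 in cone-rich and 10.5 ± 1.45 in other cells, and Agpat3 at 16.4 ± 2.38 and 14.4 ± 2.33, while Elovl2 was at 5.75 ± 1.16 and 0.545 ± 0.124. Lpcat1, lower by CPM, was higher in cone-rich cells on this scale, at 3.36 ± 0.742 (2.71 to 4.61) against 1.87 ± 0.471 (1.24 to 2.47), without overlap. Any gene that falls less than the rod list is higher on this scale, and the share of all genes that are was not computed. Acsl6 was higher in cone-rich cells of all 6 retinas, 129 ± 13.9 against 109 ± 13.6 CPM, and Scd2 lower in all 6, 17.99 ± 9.45 against 24.6 ± 6.58 CPM, both with overlapping ranges. How many of all genes kept 1 direction in all 6 retinas was not computed.

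Mesenchymal cells comprise vessel cells and microglia, and marker lists separated 99 endothelial-rich, 84 microglia-rich and 21 pericyte-rich cells from 42 that met no limit. Mfsd2a had 57 of its 87 UMIs in the endothelial-rich cells, at 217 ± 80.5 CPM. The microglia-rich cells gave 0 Mfsd2a UMIs, which allows up to 17.9 CPM. Pericyte-rich cells gave 2 UMIs, both from 1 retina. Lpcat1, low in mesenchymal cells as a whole, was uneven among these classes. It stood at 138 ± 75.8 CPM in microglia-rich cells (26 UMIs) and at 38.0 ± 32.6 CPM in endothelial-rich cells (11 UMIs). The ranges of these 2 classes over retinas overlapped, and pericyte-rich cells gave 0 Lpcat1 UMIs.

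Interneurons were divided in the same way into 1575 bipolar-rich and 322 amacrine-rich cells, with 186 unclassed. The amacrine list was not particular to interneurons, as it stood at 1121 to 1567 CPM in glia and at 130 to 428 CPM in the interneurons of the 4 batch 2 retinas. Fads1 stood at 58.9 ± 29.8 CPM in amacrine-rich and 14.6 ± 5.10 CPM in bipolar-rich cells, higher in amacrine-rich cells of all 6 retinas. The share of all genes with this direction in all 6 was not computed. Only the batch 1 retinas held over 3 Fads1 UMIs in amacrine-rich cells, where wild-type replicate 3 gave 29 and ko/ko replicate 3 gave 22. Scd2 in these 2 retinas was 226 and 167 CPM in amacrine-rich against 93.5 and 78.6 CPM in bipolar-rich cells. Over all 6 retinas it was 131 ± 132 CPM in amacrine-rich cells, with 0 UMIs in wild-type replicates 1 and 2, and 62.3 ± 19.3 CPM in bipolar-rich cells, and the ranges overlapped. Amacrine-rich cells were 23.6% and 24.1% of interneurons in batch 1 and 1.88% to 7.05% in batch 2, and the interneuron sums of Scd2 were 139 and 113 CPM in batch 1 and 45.1 to 53.9 CPM in batch 2.

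**Figure D3:**
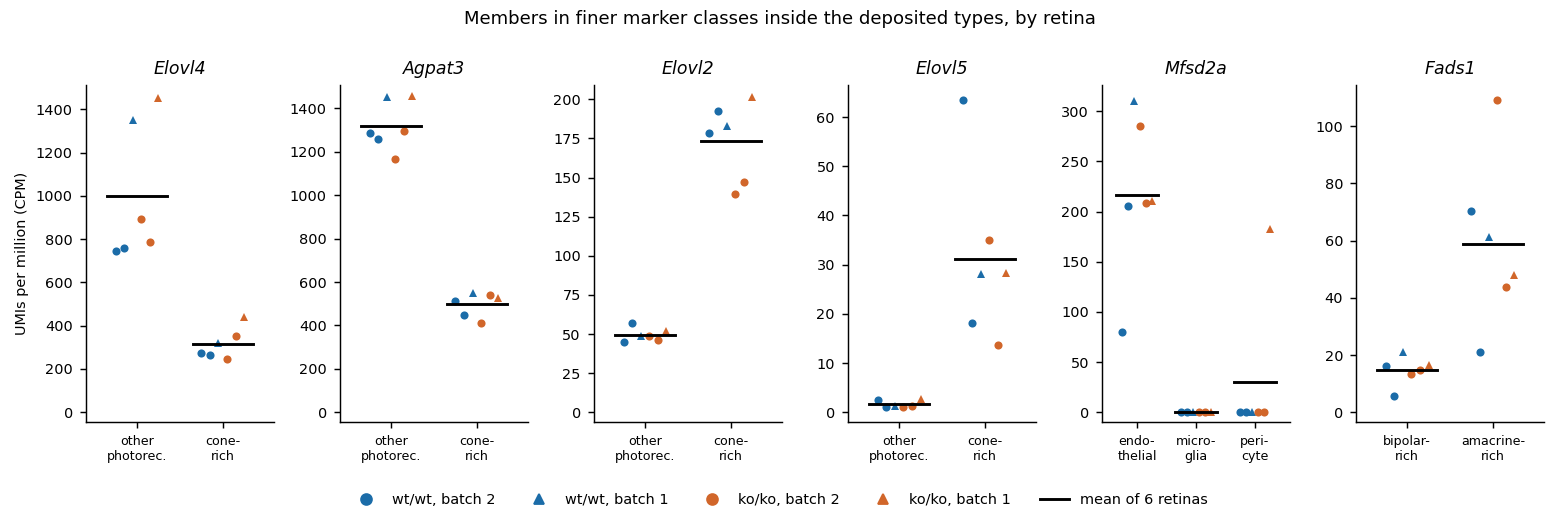
CPM (linear axes) of 6 genes in marker classes inside the deposited types, 1 point per retina with the mean as a line. Elovl4 and Agpat3 are lower and Elovl2 and Elovl5 higher in cone-rich than in other photoreceptors of all 6 retinas, Mfsd2a is at 0 in microglia-rich cells, and the single pericyte point above 0 rests on 2 UMIs.

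The other genes of the pathways were highest in different types, and more of those tested were higher in glia than in photoreceptors than the reverse. Of 68 genes 66 were detected and 31 passed the filter between types, of which 20 were higher in glia than in photoreceptors and 5 higher in photoreceptors, where 32% and 37% of all 6290 genes were, with a median log2 difference (photoreceptor minus glia) of -1.06. The 20 include Dbi, which is also a gene of the Müller marker list. As with the members, a gene could pass the filter through the types where it was high, which favours a difference among types. The counts by role and the p-values below share this limit. By mean level 23 genes were highest in glia, 14 in photoreceptors, 14 in mesenchymal cells, 12 in interneurons and 3 in RPE.

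In the elongation cycle, 4 of 4 genes tested were higher in glia, against 32% of all genes. Tecr, the reductase of the last step, was highest in interneurons at 612 ± 74.1 CPM, and averaged 562 ± 123 CPM in glia and 365 ± 46.1 CPM in photoreceptors, a log2 difference of -0.47 (SE 0.11, edgeR adjusted p = 8.85e-05, photoreceptor minus glia). The dehydratase Hacd4 had the largest ratio of another type to photoreceptors, with 20.9 ± 21.4 CPM in mesenchymal cells, from 17 UMIs in all cells. Of the other desaturases, Fads3 was at 62.9 ± 56.0 CPM in RPE and 47.2 ± 26.6 CPM in glia against 3.21 ± 1.43 CPM in photoreceptors, and Fads6 was at 12.8 ± 7.28 CPM in glia, 11.3 ± 6.92 CPM in interneurons and 0.553 ± 0.334 CPM in photoreceptors.

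Among synthetases, Acsl3 was a glial gene at 2371 ± 700 CPM against 93.7 ± 27.2 CPM in photoreceptors (log2 difference -4.52, SE 0.12, edgeR adjusted p = 2.3e-45), and Acsl5 was highest in mesenchymal cells at 50.9 ± 28.6 CPM. Among uptake and binding genes, Fabp12, a fatty acid binding protein, stood at 822 ± 164 CPM in photoreceptors and 68.7 ± 30.2 CPM in glia (log2 difference 3.68, SE 0.15, edgeR adjusted p = 4.07e-34). Its ratio to the rod list outside photoreceptors was 0.616 to 0.808 of that inside. Cd36, a fatty acid translocase, was at 56.7 ± 33.5 CPM in glia and 0.657 ± 0.476 CPM in photoreceptors.

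Among the acyltransferases, 2 of 8 tested were higher in photoreceptors and 4 in glia, against 37% and 32% of all genes. Agpat5 stood at 291 ± 67.2 CPM in photoreceptors and 87.7 ± 27.5 CPM in glia (log2 difference 1.94, SE 0.16, edgeR adjusted p = 1.59e-18), and Agpat4 was at 60.2 ± 27.8 CPM in mesenchymal cells and 0.411 ± 0.478 CPM in photoreceptors. In peroxisomal chain shortening, which ends DHA synthesis, 4 of 6 genes tested were higher in glia and none in photoreceptors, against 32% and 37% of all genes. Acaa1a, the peroxisomal thiolase, averaged 170 ± 18.8 CPM in glia and 109 ± 13.6 CPM in photoreceptors, and Abcd2, a peroxisomal importer of acyl-CoA, 81.6 ± 19.8 CPM in interneurons and 6.98 ± 1.49 CPM in photoreceptors. Of the phospholipases, Pla2g6 averaged 19.0 ± 7.94 CPM in glia and 10.7 ± 2.71 CPM in photoreceptors, and Pla2g4a 14.5 ± 7.79 CPM in glia with 0.0931 ± 0.228 CPM in photoreceptors. Of the regulators, Insig1, which holds SREBP in the endoplasmic reticulum, was at 138 ± 17.9 CPM in glia and 6.76 ± 1.70 CPM in photoreceptors (log2 difference -4.16, SE 0.21, edgeR adjusted p = 9.51e-29), and Nr1h2, the liver X receptor beta, at 83.4 ± 16.4 and 72.3 ± 8.89 CPM.

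The genes most like each member were taken from 5823 genes by Pearson's r of log2(CPM + 10) over the 30 sums of 6 retinas and 5 types, which share libraries and depth. Elovl4 was most like Crx (r = 0.886), Rom1 (0.884) and Prph2 (0.883), and among the 3 most like Agpat3 were Prph2 (0.928) and Cnga1 (0.919). These are rod or photoreceptor genes, and Agpat3 and Elovl4 had r = 0.833 with each other. Lpcat1 was most like Wtap (0.823), Trim17 (0.771) and Nrl (0.769).

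Elovl2 was most like Gm10544 (0.868), Tmem136 (0.834) and Dyrk2 (0.806), with r = 0.569 to Elovl4. Elovl5 was most like Ctnnbip1 (0.912), Id2 (0.886) and Ndrg2 (0.874), and Scd2 like Ap4s1 (0.907), Nlgn1 (0.876) and Chadl (0.872). Among the 3 genes most like Fads1 were Vat1l (0.846) and Rtn3 (0.757), and Acsl6 was most like the phospholipase Pla2g5 (0.919), Fam213a (0.917) and Ddt (0.877). Elovl5 and Elovl4 had r = -0.487, and Scd2 and Fads1 had r = 0.705.

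Whether loss of Dram2 changed these genes was tested in each type between 3 wild-type and 3 ko/ko retinas. None of the 10 genes passed in any type. By edgeR 0 of 8 passed in photoreceptors, 0 of 5 in interneurons, 0 of 7 in glia and 0 of 2 in mesenchymal cells, beside 0% of all genes tested in each of these types, and no member could be tested in RPE. At an unadjusted p under 0.05 there were 109 of 13053 genes in photoreceptors, 86 of 7698 in interneurons, 51 of 4130 in glia, 150 of 1717 in mesenchymal cells and 11 of 308 in RPE, and Mfsd2a in mesenchymal cells was the 1 member among them. In photoreceptors, interneurons and glia these are fewer than such a cut gives where no gene differs. The fit held no batch term, so batch differences count in its standard errors, and the lack of calls does not show that no gene changed. limma-voom and DESeq2, read for the 8 genes in photoreceptors, Elovl5, Fads1, Scd2 and Acsl6 in glia and Mfsd2a in mesenchymal cells, called 0 of these. Of the 68 other pathway genes 50 were tested in photoreceptors and 26 in glia, and none passed.

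In photoreceptors the fitted log2 changes (ko/ko minus wild type) ran from -0.48 for Elovl5 to 0.22 for Fads1, and the groups overlapped for all 8. Groups without overlap, with ko/ko higher or lower, made up 1.83% and 3.72% of genes tested in photoreceptors, 2.59% and 3.62% in interneurons, 3.63% and 2.25% in glia, 9.26% and 6.52% in mesenchymal cells and 6.17% and 4.55% in RPE. Among the 10 genes they were found for Fads2 in photoreceptors and Mfsd2a in mesenchymal cells. The value was 0.20 for Elovl4 (SE 0.33), -0.11 for Elovl2 (SE 0.17), 0.03 for Agpat3 (SE 0.20), 0.14 for Lpcat1 (SE 0.18), -0.09 for Acsl6 (SE 0.19) and -0.27 for Scd2 (SE 0.30), each with an edgeR adjusted p of 0.998. In glia it was -0.11 for Elovl5 (SE 0.37), -0.10 for Scd2 (SE 0.24), -0.14 for Fads1 (SE 0.38) and -0.18 for Acsl6 (SE 0.25), each with an edgeR adjusted p of 1.00. In interneurons the 5 values lay between -0.07 and 0.19.

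Mfsd2a in mesenchymal cells was the value farthest from 0 among those tested. The wild-type retinas held 24.5, 85.4 and 121 CPM (2, 8 and 11 UMIs). In those of ko/ko mice it stood at 179, 158 and 167 CPM (14, 18 and 13 UMIs). The groups did not overlap, as was the case with ko/ko higher for 9.26% of the 1717 genes tested there. The log2 value was 1.05 (SE 0.46, edgeR adjusted p = 0.547, unadjusted 0.0427), and it was 0.64 without wild-type replicate 1, the lowest retina.

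The endothelial share of the mesenchymal cells moved in the same direction. The list of 13 endothelial genes stood at 7805, 10630 and 12550 CPM in wild-type and 16422, 13343 and 17721 CPM in ko/ko mesenchymal cells, and endothelial-rich cells were 23.1%, 34.7% and 35.1% of them in wild type and 55%, 40% and 58.1% in ko/ko retinas. The list of 12 microglia genes moved the other way without overlap, at 29846, 28442 and 21527 CPM in wild-type and 10841, 19042 and 5984 CPM in ko/ko mesenchymal cells, and microglia-rich cells were 51.3%, 46.9% and 29.7% of them in wild type and 20%, 34% and 16.1% in ko/ko retinas. Per 1000 endothelial list UMIs, Mfsd2a was at 6.95 ± 3.39 in wild-type and 10.7 ± 1.21 in ko/ko retinas (SD, n = 3, two-sided exact permutation p = 0.2). In the endothelial-rich cells alone Mfsd2a was at 199 ± 115 and 235 ± 44.1 CPM (exact permutation p = 0.7). For the endothelial list itself the exact permutation p was 0.1, which is the smallest p that 3 against 3 retinas allow. No such test could therefore fall under the limit used for calls. Whether the endothelial share, or a change per endothelial cell, accounts for the Mfsd2a values was not tested.

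Fads2 did not pass the filter between genotypes in any type. Its photoreceptor UMIs were 3, 6 and 8 in wild-type and 0, 1 and 0 in ko/ko retinas, and the CPM of the groups did not overlap. The share of genes with ko/ko lower in this way, 3.72%, is over genes that passed the filter and so does not describe genes with as few UMIs as Fads2. In a fit without the filter, over 30241 genes, its log2 value was -3.74 with an edgeR adjusted p of 0.933 (unadjusted 0.00134). Over all cells the UMIs were 8, 7 and 18 in wild-type and 0, 3 and 6 in ko/ko retinas, again without overlap in CPM, where the shares over the genes that passed the filter were 1.73% with ko/ko higher and 3.56% with ko/ko lower. In glia Fads2 had 15.3, 6.69 and 17.7 CPM in wild-type and 0, 13.8 and 7.61 CPM in ko/ko retinas, which overlapped.

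The genotype difference was also compared between types, as a type by genotype term. None of the 9 genes passed (edgeR adjusted p = 1 for each), where 4 of 6290 genes did, or 0.0636%. Elovl4 had the lowest unadjusted value of the 9, at 0.0167. Its UMIs were 0, 3 and 7 in wild-type and 4, 10 and 15 in ko/ko mesenchymal cells, and 2, 5 and 8 in wild-type and 1, 0 and 2 in ko/ko RPE. In fits without the filter the log2 value of Elovl4 was 1.47 in mesenchymal cells (SE 0.57, edgeR adjusted p = 0.801, unadjusted 0.0103) and -1.83 in RPE (SE 0.90, edgeR adjusted p = 0.735, unadjusted 0.0426), and the CPM of the groups overlapped in both types.

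**Figure D4:**
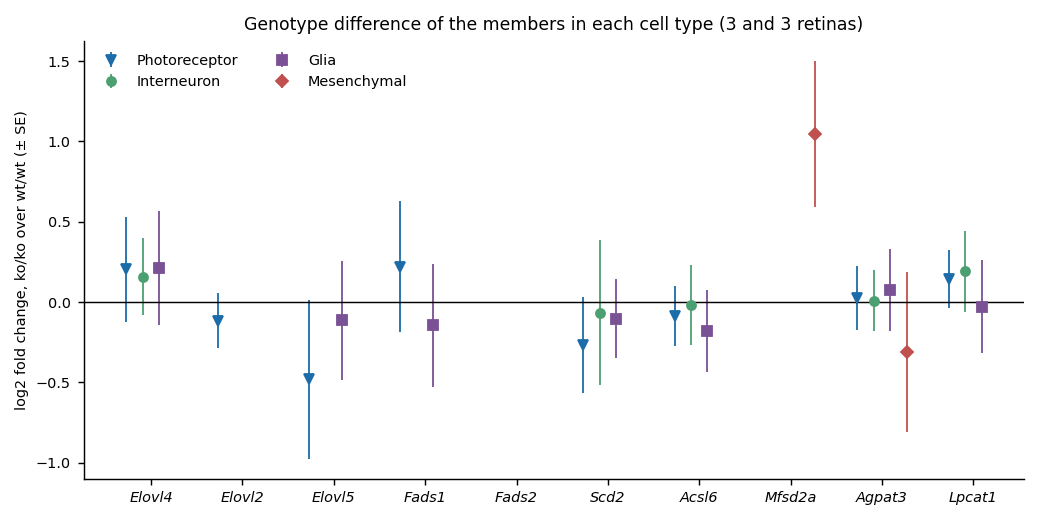
Log2 fold change of ko/ko over wild-type retinas for each gene and type that passed the filter, with its standard error from edgeR (3 and 3 retinas, no value for RPE or for Fads2). All values lie between -0.48 and 0.22 except Mfsd2a in mesenchymal cells at 1.05 ± 0.46.

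Batch separated Elovl4 in photoreceptors, as seen after the data were examined. The genotype value of 0.20 given above came from a fit without batch, so it is not set against the batch value below. In a fit with genotype and batch, Elovl4 was 0.81 higher in batch 1 on the log2 scale (SE 0.13, edgeR adjusted p = 0.0197), and 5.39% of 13053 genes passed, 2.26% with batch 1 higher and 3.13% with batch 1 lower. Among the other 7 genes tested none passed, with Scd2 nearest at 0.65 (SE 0.19, edgeR adjusted p = 0.0863). The rod list was also highest in batch 1, at 104170 and 110077 CPM against 70217, 71024, 94956 and 82123 CPM.

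Per 1000 rod list UMIs, Elovl4 stood at 11.8 and 12.6 in batch 1 and at 10.1, 10.1, 9.01 and 9.16 in batch 2, still without overlap. Within batch 2 it was 708 and 716 CPM in wild-type and 856 and 752 CPM in ko/ko retinas, and within batch 1 it was 1227 and 1384 CPM, so ko/ko was higher in both batches. Relative to the rod list, ko/ko was lower in batch 2 and higher in batch 1. What in the batches moved Elovl4 was not tested.

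**Figure D5:**
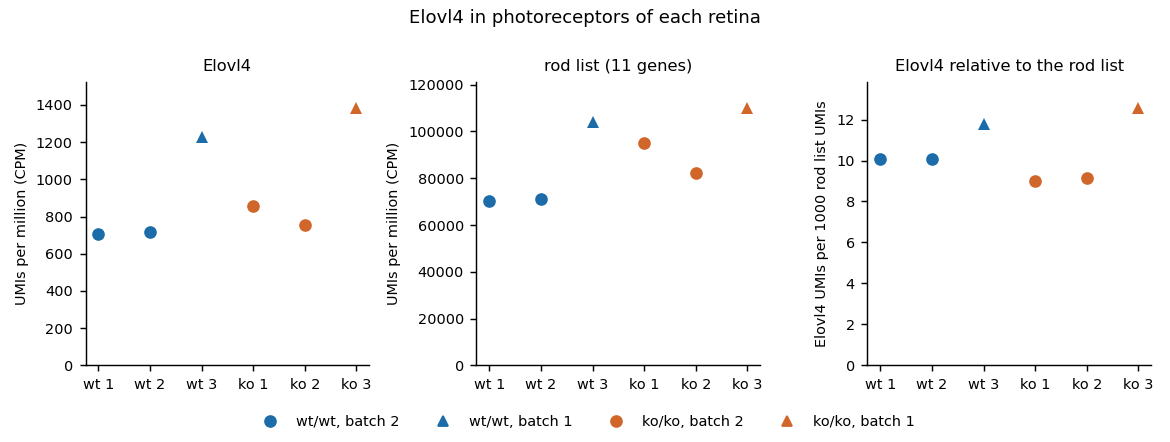
Elovl4 in photoreceptors of each retina as CPM (left), the summed rod list of 11 genes as CPM (middle) and Elovl4 UMIs per 1000 rod list UMIs (right), on linear axes from 0, with batch 1 as triangles. The 2 batch 1 retinas are highest in all 3 panels.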

How the data were processed

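Retinal cells from 6 samples (3 Dram2 wt/wt, 3 Dram2 ko/ko) were profiled with 3′ single-cell chemistry. Per the labels, reads were processed with Cell Ranger 3.1.0 and the GRCm38 build. The deposited table holds raw UMI counts, not normalized, for 52636 genes in 46375 cells, with the sample and the cell type the authors gave each cell. How the authors removed doublets is not given in the sources used here, and no doublet caller was run. Cell names carry no barcodes, so barcodes shared between libraries could not be counted. Gene names came from GENCODE M21 (52489 IDs matched).

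Counts were summed per retina and type, giving 17073 to 4675272 UMIs per sum. CPM is UMIs per 1000000 UMIs of a sum. Genotypes were compared within each type, and types with the retina as a block, with edgeR 4.0.16 (TMM, filterByExpr, quasi-likelihood F test, Benjamini-Hochberg over all genes, called at 0.05) in R 4.3.3. Alternatives used limma 3.58.1, DESeq2 1.42.0, RLE factors, no filter, batch, a replicate block, cells of 500 or more UMIs with no more than 10% mitochondrial reads, cells with less rod RNA, and leaving out each retina. Scripts were tested on simulated data. Likeness used Python 3.11.15 with numpy 2.4.6, and exact permutation tests scipy 1.17.1. Finer classes required 10 UMIs of a vascular or microglial list, or 3 of a bipolar or amacrine list, and 2 times the next list.

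The genes, the pathway and marker lists and the tests were chosen with earlier results of these data known. Named genes are the 10 members, the most abundant gene and the gene with the largest ratio of another type to photoreceptors in each role, and the 3 genes most like each member, of which 2 are not reported here. Levels were given per retina mainly where most retinas held at least 10 UMIs. The tissue labels give retina, while the design text of the series names choroid and gives 2 samples in total beside 3 replicates of each genotype. Nothing used here states that replicates came from separate mice, so p-values may measure technical spread.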

Additional observations from a re-analysis of the deposited data

Results flagged for a closer look

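The 629 cells without a type entered none of the comparisons between or within types, but they were part of the sums over all cells. Of the 10 genes, 6 gave more than 3 UMIs in these cells. Pooled over retinas, Elovl4 stood at 1074 CPM, Agpat3 at 1374 CPM, Lpcat1 at 135 CPM, Acsl6 at 113 CPM, Elovl2 at 76.5 CPM and Scd2 at 15.8 CPM. The rod list made up a median of 9.32% of the UMIs of these cells, beside 8.28% in photoreceptors other than cone-rich cells. No gene changed in opposite directions in different types without overlap, and groups of 3 retinas were too small for a search for outlying samples.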

How the results depend on the processing

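Alternatives were run for 13 genotype values (the 8 genes in photoreceptors, Elovl5, Fads1, Scd2 and Acsl6 in glia, and Mfsd2a in mesenchymal cells), and none of the 13 passed in any of them. Mfsd2a in mesenchymal cells ranged from 0.64 to 1.45 on the log2 scale (adjusted p 0.276 to 1.00 over edgeR, limma-voom and DESeq2), and was 0.63 relative to the endothelial list and 0.24 in endothelial-rich cells alone, both chosen after seeing the data. Genes called between genotypes, 0 in each type, became 1 in photoreceptors, 1 in interneurons, 28 in mesenchymal cells, 3 in RPE and 1 in all cells without the filter on low counts, 21 in mesenchymal cells and 3 in RPE with batch as a covariate, 35 and 5 with limma-voom and batch, and 1 in RPE with DESeq2. Leaving out each retina gave 0 to 7 in mesenchymal cells (7 without ko/ko replicate 2) and 0 to 2 in RPE (2 without wt/wt replicate 3). Genes called between types, 5930, became 15741 with no filter and 3434 in cells with less rod RNA, where fewer cells were counted. Neighbouring types of the members passed in 11 to 23 pairs, again without a share over all genes. The step of Acsl6 from RPE to glia was lost without the filter (0.39, adjusted p = 0.499), in wt/wt alone (0.66, 0.141) and in ko/ko alone (0.82, 0.113), and that of Scd2 from interneurons to mesenchymal cells with DESeq2 (0.68, 0.182) and without wt/wt replicate 3 (0.61, 0.174) or ko/ko replicate 3 (0.66, 0.156). That of Mfsd2a from mesenchymal cells to RPE was lost in wt/wt alone (0.67, 0.632). Lost in wt/wt alone were also Elovl2 photoreceptors to RPE (1.88, 0.0799) and Elovl5 interneurons to photoreceptors (0.92, 0.0567), and in ko/ko alone Elovl5 glia to RPE (1.63, 0.0736) and mesenchymal cells to interneurons (1.40, 0.142), Lpcat1 glia to interneurons (0.51, 0.0614) and Scd2 interneurons to mesenchymal cells (0.64, 0.226). Acsl6 glia to photoreceptors was lost without the filter (0.29, 0.118), and in cells with less rod RNA Elovl5 mesenchymal cells to interneurons (1.30, 0.0896), Scd2 interneurons to mesenchymal cells (0.90, 0.0708) and Acsl6 RPE to glia (0.66, 0.0631) were. The cause was not tested.

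The sign turned in values that passed nowhere. In cells with less rod RNA the genotype value was 0.015 for Elovl5 and 0.057 for Scd2 in glia, and Fads1 in glia against RPE was -0.093 in wt/wt retinas alone. Leaving out each retina, the photoreceptor values spanned -0.13 to 0.53 for Elovl4, -0.011 to 0.69 for Fads1, -0.25 to 0.039 for Acsl6 and -0.073 to 0.13 for Agpat3, and the glial values -0.73 to 0.21 for Elovl5, -0.37 to 0.15 for Fads1 and -0.24 to 0.13 for Scd2.

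Deviations from the group means correlated, for replicates 1, 2 and 3, at -0.07, 0.54 and 0.52 in photoreceptors, -0.07, 0.31 and 0.49 in glia, 0.10, 0.34 and 0.58 in interneurons and 0.07, 0.54 and 0.65 in all cells. Every pair was above 0.1 in interneurons only, replicate 3 is also batch 1, and the retinas were not treated as paired. With a replicate block 26 genes were called in mesenchymal cells and 4 in RPE and 0 in the other types, and Mfsd2a was at 1.08 (adjusted p = 0.302). Depth limits RPE most, with 17073 to 35968 UMIs a retina.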
